A study of Homo sapiens with 21 samples.

Results

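SR proteins are splicing factors that bind exons and help the spliceosome to recognise splice sites. Their tail of alternating arginine and serine residues, the RS domain, is phosphorylated by the SRPK and CLK kinases, which moves the proteins between storage speckles and active sites in the nucleus. Many SR genes also limit their own level: the protein promotes splicing of its own transcript to a form with a poison exon, and that form is degraded by nonsense-mediated decay. The genes described are SRSF1, SRSF2, SRSF3, SRSF4, SRSF5, SRSF6, SRSF7, SRSF9, SRSF10 and SRSF11. They are 10 of the 37637 features in the table of counts, chosen by symbol and matched to Ensembl gene IDs, and every one of the 10 had exactly 1 row and passed the filter on low counts.

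The cells were HepG2, an established human liver cancer line, kept for 6 h in medium without serum. That medium held caffeine, a methylxanthine that blocks adenosine receptors and is found in coffee and tea, at 0, 0.01, 0.1, 1, 10, 100 or 1000 µM. Each dose had 3 libraries of poly(A)-selected RNA, 21 in all, which the series text calls biological replicates, and all come from this 1 line. The sample labels call the control untreated, 0 µM caffeine, whereas the series text names coumarin for it, and the sample labels were followed. Caffeine is reported to change SRSF2 and SRSF3, so the comparisons ask which SR transcripts differ from the control and from which dose on.

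Total counts ran from 28043623 to 40827833 per library. The liver and hepatoma markers ALB, AFP, APOA1, APOB, TF, SERPINA1, HNF4A and FGB were present in all libraries, with ALB at 4745 to 7145 CPM (the count scaled by library size and TMM factor). The markers of other cell types were at or near 0: the highest count in any library was 1 for PTPRC, 6 for COL1A1 and 1 for VIM. The share of counts from the mitochondrial genome lay between 4.95% and 14.2%, and it was above 10% in 4 libraries, which were 0.01 µM replicate 1, 1 µM replicate 3, 10 µM replicate 1 and 1000 µM replicate 3.

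Positions are from GENCODE 29 (GRCh38). SRSF1 lies on chromosome 17 from 58003360 to 58007346 and SRSF2 on the same chromosome from 76734115 to 76737374, both on the minus strand. SRSF3 lies on chromosome 6 from 36594353 to 36605600 and SRSF6 on chromosome 20 from 43457928 to 43464247, both on the plus strand. SRSF4 (29147743 to 29181987) and SRSF10 (23964804 to 23980927) are on the minus strand of chromosome 1, and SRSF11 (70205682 to 70253052) is on its plus strand. SRSF5 lies on chromosome 14 from 69726900 to 69772005 on the plus strand, SRSF7 on chromosome 2 from 38743599 to 38751494 on the minus strand, and SRSF9 on chromosome 12 from 120461668 to 120469793 on the minus strand. Each of the 10 genes has at least 1 annotated transcript marked for nonsense-mediated decay, from 1 for SRSF5, SRSF6 and SRSF9 to 6 for SRSF7. The deposited values count a gene as a whole, so the coding and the degraded forms cannot be told apart.

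RefSeq gives promoters of 300 bases (250 before and 50 from the transcription start, GRCh38.p14) for 9 of the 10 genes. SRSF2 had no entry in the set used, so its promoter was not searched. SRSF7 and SRSF11 have a second entry each at another start, and the entry at the start of the RefSeq gene was used. The promoters of SRSF7, SRSF9, SRSF10 and SRSF11 are shown because these genes differed from the control at 1000 µM, SRSF7 and SRSF9 downwards and SRSF10 and SRSF11 upwards. Capitals mark matches, on either strand, to any of 6 motifs searched: the CRE half-site TGACG, bound by factors of the cAMP pathway; GCGTG, the core bound by AHR and ARNT; the ETS core CCGGAAG; the NRF1 palindrome; the CCAAT box CCAAT; and the GC box GGGCGG.
SRSF7, chr2:38751445-38751744, minus strand: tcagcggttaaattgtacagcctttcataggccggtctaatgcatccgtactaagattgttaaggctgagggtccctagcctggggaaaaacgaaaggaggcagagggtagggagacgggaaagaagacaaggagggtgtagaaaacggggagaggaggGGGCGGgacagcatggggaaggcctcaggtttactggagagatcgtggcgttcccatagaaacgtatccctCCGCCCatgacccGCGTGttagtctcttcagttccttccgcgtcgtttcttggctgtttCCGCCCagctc
SRSF9, chr12:120469699-120469998, minus strand: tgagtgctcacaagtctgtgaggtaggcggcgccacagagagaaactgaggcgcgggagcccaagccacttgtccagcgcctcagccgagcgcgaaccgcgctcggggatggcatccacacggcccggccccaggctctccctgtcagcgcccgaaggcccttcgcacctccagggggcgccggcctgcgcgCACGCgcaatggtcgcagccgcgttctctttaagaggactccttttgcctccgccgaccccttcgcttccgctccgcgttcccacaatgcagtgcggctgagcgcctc
SRSF10, chr1:23980278-23980577, minus strand: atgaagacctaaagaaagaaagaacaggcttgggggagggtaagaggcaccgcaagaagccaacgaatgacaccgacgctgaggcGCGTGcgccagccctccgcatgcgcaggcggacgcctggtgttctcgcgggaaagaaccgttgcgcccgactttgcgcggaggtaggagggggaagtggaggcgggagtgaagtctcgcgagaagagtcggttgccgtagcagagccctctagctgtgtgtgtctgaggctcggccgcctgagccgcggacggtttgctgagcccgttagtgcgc
SRSF11, chr1:70205446-70205745, plus strand: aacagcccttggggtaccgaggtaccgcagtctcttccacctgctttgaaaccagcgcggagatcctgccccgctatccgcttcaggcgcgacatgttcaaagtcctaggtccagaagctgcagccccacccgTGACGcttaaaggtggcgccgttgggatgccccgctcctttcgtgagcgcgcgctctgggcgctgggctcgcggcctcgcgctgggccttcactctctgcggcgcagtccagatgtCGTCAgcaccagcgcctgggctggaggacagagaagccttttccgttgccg

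TGACG was found in 4 of the 9 SR promoters against 24.6% of 35116 promoters, and GCGTG in 7 against 36.5%. CCGGAAG was in 2 (10.3% of all), GGGCGG in 3 (45.0%), CCAAT in 1 (34.6%) and the NRF1 palindrome in 0 (1.24%). Counting the second entries as well, TGACG was in 5 and GGGCGG in 4 of the 9 genes, because the second SRSF7 entry holds TGACG and the second SRSF11 entry GGGCGG. GC content of the sequences shown was 55.0% for SRSF7, 68.3% for SRSF9, 63.0% for SRSF10 and 64.7% for SRSF11, beside a median of 58.7% for all promoters. These matches are a description of letters and were not tested against the response.

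All 10 SR genes were expressed, at 66.5 to 580 CPM in single libraries. To compare levels between genes, CPM was divided by the length of the annotated principal transcript in kilobases. In the 3 controls SRSF1, a general splicing activator, was highest at 253 ± 17.7 CPM per kb (SD, n = 3). SRSF2, a speckle protein, followed at 191 ± 9.54 CPM per kb, and SRSF3, the smallest member and also an mRNA export adaptor, at 141 ± 12.6 CPM per kb. SRSF9 was at 128 ± 25.4, SRSF5 at 93.9 ± 7.21, SRSF6 at 84.5 ± 6.78 and SRSF10 at 80.7 ± 7.81 CPM per kb. SRSF7 was at 67.6 ± 1.61, SRSF11 at 48.5 ± 5.47 and SRSF4 at 40.6 ± 3.14 CPM per kb. The control libraries of neighbours in this order overlapped from SRSF3 down to SRSF10, and again for SRSF11 and SRSF4. SRSF1 against SRSF2, SRSF2 against SRSF3, SRSF10 against SRSF7 and SRSF7 against SRSF11 did not overlap. The order depends on the length used: per kilobase of all annotated exons, SRSF2 was highest at 152 ± 7.61 and SRSF1 next at 115 ± 8.01 CPM per kb.

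**Figure D1:**
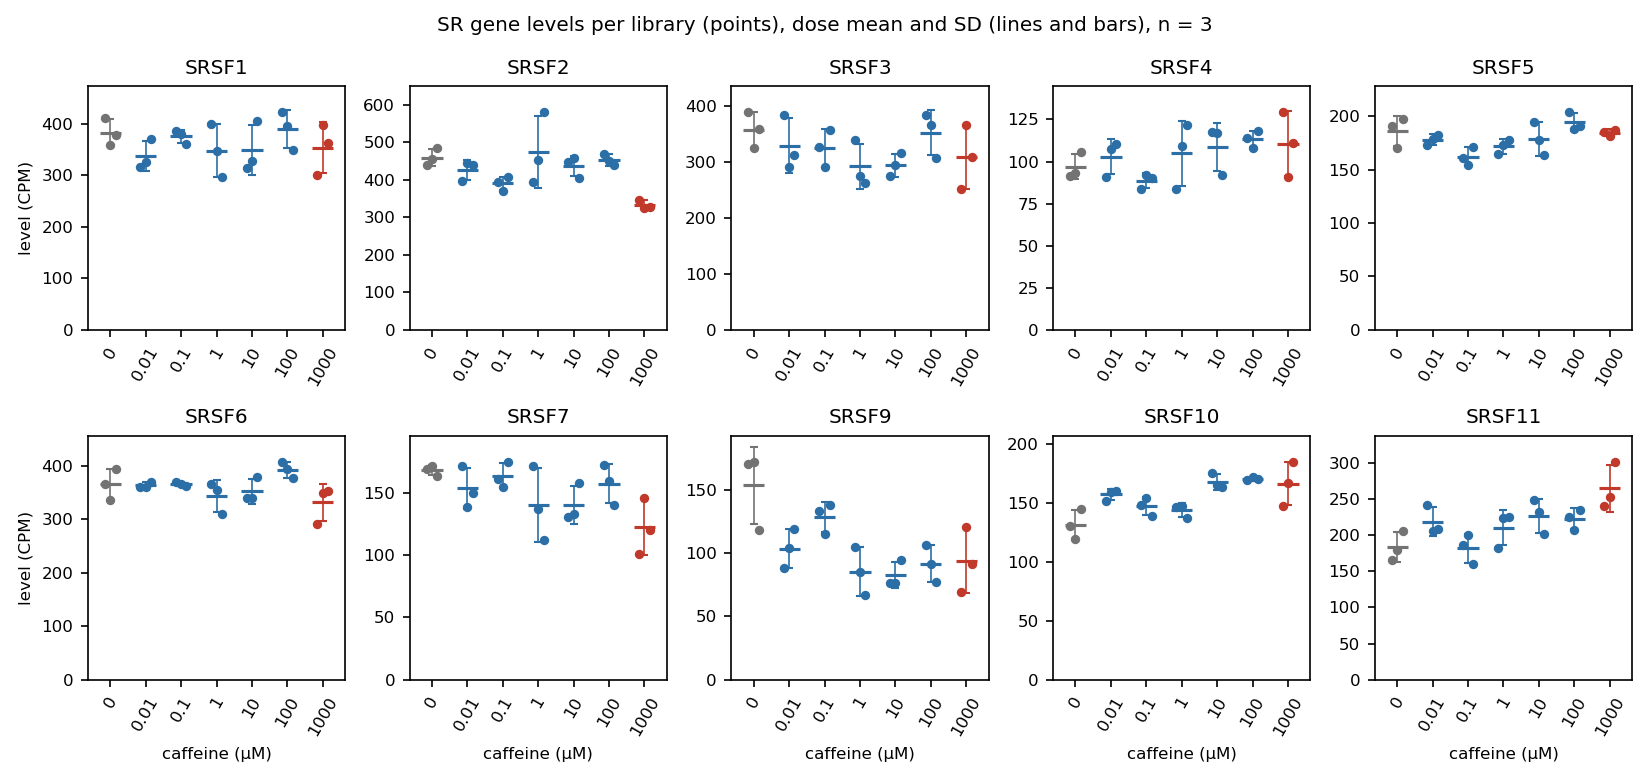
Level of each SR gene (vertical axis, CPM after TMM scaling, from 0) by caffeine dose (horizontal axis, µM). Points are single libraries, horizontal lines are means of 3 libraries and bars are SD; grey marks 0 µM and red 1000 µM. SRSF2 at 1000 µM sits at 325 to 346 CPM, below all other libraries, and SRSF11 at 1000 µM reaches 302 CPM.

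At 1000 µM against 0 µM, 5 of the 10 SR genes passed the threshold (edgeR's quasi-likelihood test, adjusted p under 0.05 by Benjamini-Hochberg over 17468 tested features). SRSF2, SRSF7 and SRSF9 fell, and SRSF10 and SRSF11 rose. Among all tested features 41.2% were called in this comparison, 20.6% higher and 20.6% lower, so a count of 5 in 10 is near the background. The median log2 fold change was -0.13 over the 10 genes and -0.03 over all tested features, and 24.0% of tested features changed by more than the largest SR change. The summed level of the 10 genes was 2485 ± 91.4 CPM at 0 µM and 2272 ± 180 CPM at 1000 µM (SD, n = 3 each). In bulk RNA, fewer cells that express a gene and less of its RNA per cell cannot be told apart.

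SRSF2 was lower at 1000 µM than in any other group. Its 3 control libraries held 438, 455 and 483 CPM, and its 1000 µM libraries held 346, 325 and 328 CPM. The groups did not overlap, and the 3 libraries at 1000 µM lay below all of the other 18, of which the lowest, 0.1 µM replicate 2, held 370 CPM. The log2 fold change was -0.46 ± 0.11 (SE), an adjusted p of 0.00229 by edgeR. The doses between showed no steady decline: for 0.01, 0.1, 1, 10 and 100 µM, in this order, mean CPM was 426 ± 26.9, 390 ± 18.3, 475 ± 95.8, 436 ± 27.8 and 452 ± 15.1 (SD, n = 3 each). At 0.1 µM all 3 libraries lay below the controls, with a log2 fold change of -0.23 ± 0.11 (adjusted p 0.309 by edgeR). The share of tested features that did not overlap the controls at 0.1 µM is not given here. At 10, 100 and 1000 µM it was 45.8%, 43.0% and 53.2%. The highest value, 580 CPM, was that of 1 µM replicate 3, which is also the library with the highest mitochondrial share; its part in that value was not tested.

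SRSF2 also differed between the top doses. Against 100 µM, where the libraries held 468, 450 and 438 CPM, the log2 fold change at 1000 µM was -0.44 ± 0.11 (adjusted p 0.00955 by edgeR), and SRSF2 was the 1 SR gene called in that comparison, in which 14.7% of tested features were called. Without 100 µM replicate 1 the adjusted p was 0.0507. Against the mean of 0.01, 0.1, 1 and 10 µM it was lower by a log2 fold change of -0.37 ± 0.09 (adjusted p 0.00317). SRSF2 shares 1106 exonic bases with MFSD11 on the opposite strand, and whether reads were counted by strand is not given in the sources used here. MFSD11 had 684 to 1450 counts per library against 10337 to 17746 for SRSF2, and its log2 fold change at 1000 µM was -0.07 ± 0.11 (adjusted p 0.640).

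SRSF3 did not pass the threshold at any dose. The control libraries held 389, 325 and 359 CPM and the 1000 µM libraries 252, 367 and 310 CPM, and these ranges overlap. The log2 fold change was -0.21 with a 95% interval from -0.51 to 0.10 (adjusted p 0.254 by edgeR), so a change of the size seen for SRSF2 is inside that interval. The lowest means were at 1 µM (292 ± 40.7 CPM) and 10 µM (294 ± 20.7 CPM; SD, n = 3 each). At 10 µM the libraries held 274, 294 and 315 CPM, all below the controls, and the log2 fold change was -0.28 ± 0.14 (adjusted p 0.165). A fit on only the 6 libraries of 0 and 10 µM called SRSF3, and the fit over all 21 did not. At 100 µM the mean, 352 ± 40.2 CPM, was close to the control mean of 358 ± 32.0 CPM, and the means at 0.01 and 0.1 µM were 329 ± 49.4 and 325 ± 33.4 CPM (SD, n = 3 each).

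SRSF7, a zinc-knuckle relative of SRSF3 that also takes part in mRNA export, was lower at 1000 µM. The controls held 169, 172 and 164 CPM, a narrow range, and the 1000 µM libraries held 101, 146 and 121 CPM, all below it. The log2 fold change was -0.46 ± 0.15 (adjusted p 0.0182 by edgeR). The call depends on single libraries: the adjusted p was 0.0517 without 0 µM replicate 2, 0.125 without 1000 µM replicate 1 and 0.0591 without 1000 µM replicate 3. For 0.01, 0.1, 1, 10 and 100 µM, in this order, mean CPM was 154 ± 16.8, 164 ± 10.1, 140 ± 30.0, 141 ± 15.4 and 158 ± 15.8 (SD, n = 3 each), and only the libraries of 10 µM lay wholly below the controls. Against 100 µM the log2 fold change at 1000 µM was -0.36 ± 0.15 (adjusted p 0.103).

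SRSF9, a member with a short RS domain, passed the threshold at 10, 100 and 1000 µM. Its controls held 170, 172 and 118 CPM (154 ± 30.5, SD, n = 3). For 0.01, 0.1, 1, 10, 100 and 1000 µM, in this order, mean CPM was 104 ± 15.3, 129 ± 12.0, 85.4 ± 19.1, 82.5 ± 10.2, 91.7 ± 15.0 and 93.9 ± 25.8 (SD, n = 3 each), so every dose had a mean below the control mean. At 10 µM the libraries held 76.7, 76.6 and 94.3 CPM and at 100 µM 107, 91.8 and 76.8 CPM, in both cases below every control. The 1 µM libraries, at 105, 85.1 and 66.5 CPM, were below every control as well. At 1000 µM they held 69.6, 121 and 91.0 CPM, and the highest of them exceeded the lowest control. At 10 and 100 µM 45.8% and 43.0% of tested features did not overlap the controls, and for 1 µM that share is not given here.

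SRSF9 differed from the control by a log2 fold change of -0.90 ± 0.20 at 10 µM (adjusted p 0.00687 by edgeR), -0.74 ± 0.20 at 100 µM (adjusted p 0.0394) and -0.71 ± 0.20 at 1000 µM (adjusted p 0.00907). From 100 to 1000 µM it was 0.03 ± 0.20 (adjusted p 0.935). At 1 µM the value was -0.85 ± 0.20 with an adjusted p of 0.0839, at a dose where 0.0% of features were called, and at 0.01 µM -0.57 ± 0.20 with an adjusted p of 0.0902. Without 1000 µM replicate 1 the adjusted p at 1000 µM was 0.0608. The call at 100 µM was lost with the replicate number as a block, without 0 µM replicate 1 or replicate 2, and without any 1 of the 100 µM libraries. SRSF9 had the widest range of the members over the 21 libraries, with the highest library 2.59 times the lowest; SRSF5 had the narrowest, at 1.32 times. SRSF9 shares 1729 exonic bases with GATC on the opposite strand, which had 1372 to 2241 counts per library against 2035 to 5345 for SRSF9. GATC differed from the control in the other direction, with a log2 fold change of 0.23 ± 0.09 at 1000 µM (adjusted p 0.0434); how reads over the shared bases were assigned was not tested.

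SRSF10, which represses splicing when it is dephosphorylated, was higher from 10 µM on. The controls held 130, 120 and 145 CPM. The 10 µM libraries held 176, 165 and 163 CPM. Those of 100 µM held 169, 172 and 170 CPM, and those of 1000 µM held 148, 166 and 185 CPM. All 9 lay above the controls. The log2 fold change was 0.35 ± 0.09 at 10 µM (adjusted p 0.00959 by edgeR), 0.37 ± 0.09 at 100 µM (adjusted p 0.0251) and 0.34 ± 0.09 at 1000 µM (adjusted p 0.00455). Between 100 and 1000 µM it was -0.04 ± 0.09 (adjusted p 0.826). At 0.01 µM the libraries, at 152, 160 and 160 CPM, were also above the controls, with 0.26 ± 0.09 and an adjusted p of 0.0768. The share of tested features that did not overlap the controls at 0.01 µM is not given here. At 10, 100 and 1000 µM it was 45.8%, 43.0% and 53.2%. The calls at 10 and 100 µM depended on single libraries, which are named with the counts by dose.

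SRSF11, an atypical member of the family, was highest at the top dose. The controls held 166, 179 and 206 CPM and the 1000 µM libraries 241, 253 and 302 CPM, with no overlap. The log2 fold change was 0.53 ± 0.12 (adjusted p 0.00222 by edgeR). For 0.01, 0.1, 1, 10 and 100 µM, in this order, mean CPM was 219 ± 20.2, 182 ± 20.4, 211 ± 24.3, 227 ± 23.7 and 223 ± 14.6 (SD, n = 3 each). The libraries at 0.01 and 100 µM all lay above the controls. Their lowest values were 206.4 and 207.1 CPM, and the highest control held 206.3 CPM. The adjusted p was 0.195 and 0.160 by edgeR. At 100 µM 43.0% of tested features did not overlap the controls, and at 0.01 µM that share is not given here. Against the mean of 0.01, 0.1, 1 and 10 µM, SRSF11 was higher at 1000 µM by 0.34 ± 0.09 (adjusted p 0.00993), and SRSF2 and SRSF11 were the 2 members called there, beside 30.7% of all tested features. Without 1000 µM replicate 3, or without the 4 libraries with a high mitochondrial share, SRSF2 alone was called in that comparison.

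The remaining members, SRSF1, SRSF4, SRSF5 and SRSF6, did not pass the threshold at any dose in the fit over all libraries. SRSF1 held 358 to 411 CPM in the controls and 301 to 397 CPM in the 1000 µM libraries. Its log2 fold change was -0.11 with a 95% interval from -0.38 to 0.16. SRSF4, a long-tailed member, held 91.7 to 105 CPM and 90.8 to 129 CPM, with 0.19 and an interval from -0.11 to 0.49. SRSF5 held 170 to 197 CPM and 181 to 188 CPM, with -0.01 and an interval from -0.18 to 0.16, and its 3 libraries at 1000 µM all lay within the range of the controls. SRSF6 held 336 to 395 CPM and 291 to 354 CPM, with -0.14 and an interval from -0.33 to 0.05. SRSF6 at 1000 µM was below all 3 libraries at 100 µM (377 to 408 CPM), and the difference was -0.24 ± 0.09 (log2; adjusted p 0.0728 by edgeR). Between these doses 4 of the 10 members did not overlap: SRSF2, SRSF5, SRSF6 and SRSF11. The share of tested features without overlap in that comparison is not given here. SRSF1 shares 1890 exonic bases with AC015813.2 on the same strand, which had 1629 to 4896 counts per library, so part of its count is uncertain. AC015813.2 had a log2 fold change of 0.51 ± 0.22 at 1000 µM (adjusted p 0.0742), with all 3 libraries above the controls, opposite in sign to SRSF1.

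**Figure D2:**
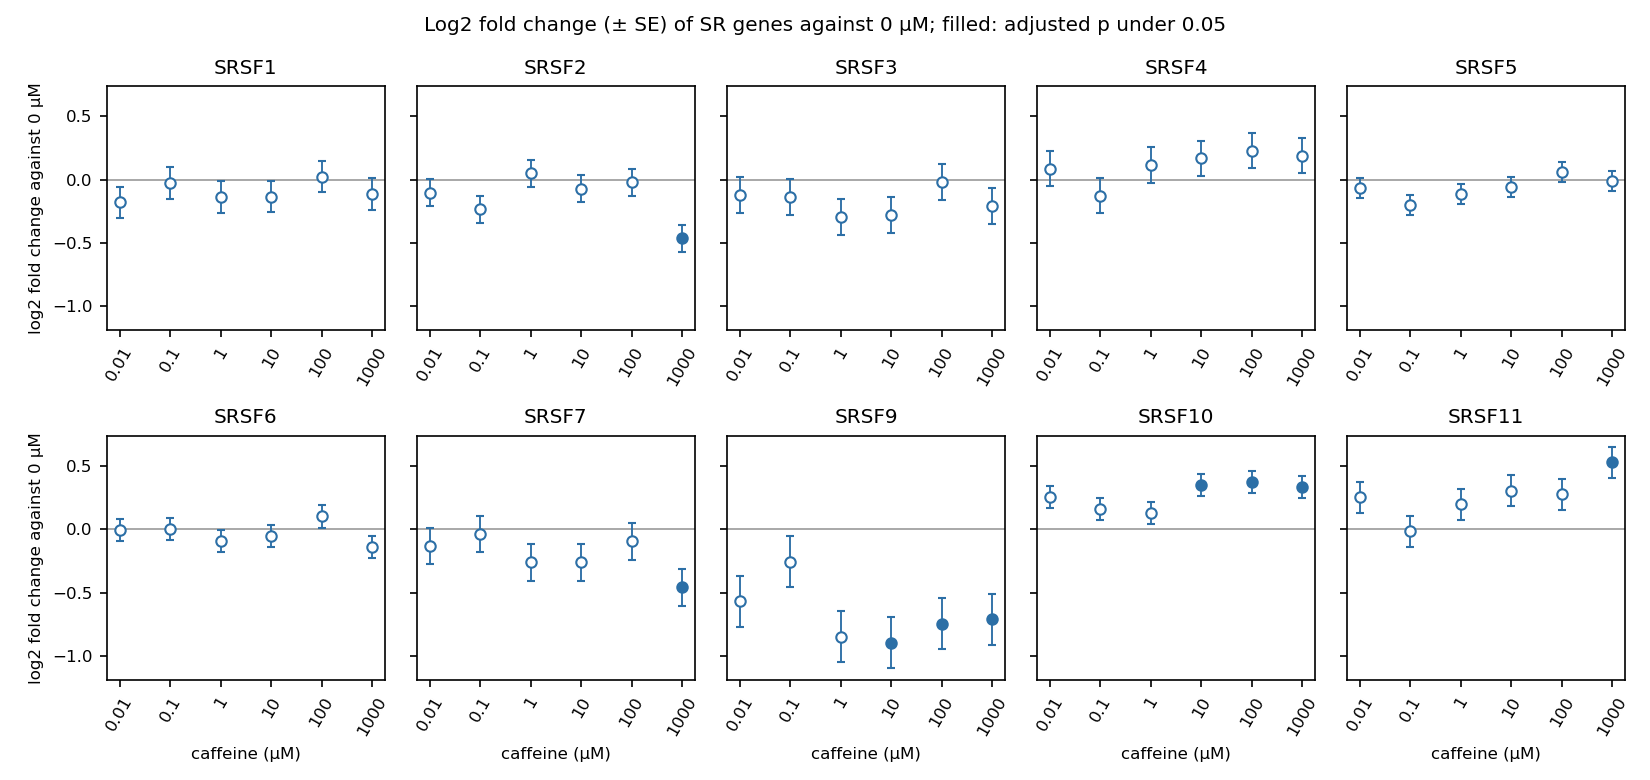
Log2 fold change of each SR gene against 0 µM (vertical axis) by caffeine dose (horizontal axis, µM), with bars of ± SE from the fit over 21 libraries. Filled points have an adjusted p under 0.05: SRSF9 and SRSF10 at 10, 100 and 1000 µM, and SRSF2, SRSF7 and SRSF11 at 1000 µM.

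Libraries of a dose lay wholly above or wholly below the controls for 4 members at 10 µM (45.8% of tested features), 4 at 100 µM (43.0%) and 4 at 1000 µM (53.2%). The members called were SRSF9 and SRSF10 at 10 µM, where 22.0% of tested features were called, and the same 2 genes at 100 µM, where 6.02% were. At 0.01, 0.1 and 1 µM 0 members passed in edgeR's test, beside 4.95%, 0.0% and 0.0% of all tested features. An unadjusted p under 0.05 by edgeR was found for 2, 2 and 1 members at these doses, beside 26.1%, 15.2% and 22.8% of tested features. DESeq2 called SRSF10 at 0.01 µM, 0 members at 0.1 µM and SRSF9 at 1 µM. The shares of all tested features that DESeq2 called are not given here, and edgeR's shares do not stand in for them. Averaged over 0.01, 0.1, 1 and 10 µM, SRSF9 was lower than at 0 µM by a log2 fold change of -0.64 ± 0.15 (adjusted p 0.0104) and SRSF10 higher by 0.23 ± 0.07 (adjusted p 0.0315), beside 18.2% of tested features. All of these comparisons share the same 3 controls. Without 0 µM replicate 1, or without 0 µM replicate 2, 0 members were called at 100 µM and 0 in the average over the lower doses. Leaving out 100 µM replicate 2 or replicate 3 also gave 0 at 100 µM, and leaving out 100 µM replicate 1 left SRSF10 alone. At 10 µM, SRSF9 alone was called without 0 µM replicate 2 or without 10 µM replicate 1. At 0.01 µM SRSF10 was called without 0 µM replicate 3, and at 1 µM SRSF9 was called without 1 µM replicate 1.

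A test among the 7 doses called SRSF2, SRSF9, SRSF10 and SRSF11, with adjusted p of 0.0163, 0.0116, 0.0174 and 0.0221, where 28.1% of tested features were called. Leaving out 0 µM replicate 1 or replicate 2 left SRSF2 alone. SRSF2 was not called without 1000 µM replicate 2, where SRSF9, SRSF10 and SRSF11 remained, nor without 1000 µM replicate 3, where SRSF9 and SRSF10 remained. A slope fitted to dose ranks (0 for the control, 6 for 1000 µM) called 3 members beside 29.0% of tested features. SRSF9 fell by 0.11 ± 0.03 on the log2 scale per step (adjusted p 0.00912), SRSF10 rose by 0.05 ± 0.01 (adjusted p 0.00795) and SRSF11 by 0.07 ± 0.02 (adjusted p 0.00668). Without the 0 µM libraries 0 members had a slope past the threshold. On the dose itself in place of its rank, SRSF2, SRSF7 and SRSF11 were called, and SRSF9 (adjusted p 0.484) and SRSF10 (adjusted p 0.261) were not. The share of all tested features called by that fit was not counted.

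The genes whose log2 CPM followed SRSF2 most closely over the 21 libraries, of 9401 compared, were ZNF385C (Pearson r 0.943), SLC2A4RG (0.937) and DNAJC30 (0.937). For SRSF3 they were CRLS1 (0.933), TSN (0.917) and DCAF13 (0.911). Spearman rho, in the same order, was 0.814, 0.834 and 0.892 with SRSF2, and 0.940, 0.929 and 0.931 with SRSF3. The part of 1 µM replicate 3, the library with the highest SRSF2 level, was not tested. These values describe likeness over libraries that share scaling and composition, and the Pearson values are the highest of many.

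Libraries of the same dose differed from one another in the SR genes. Each member's log2 CPM was taken as its deviation from the mean of its dose, and the 45 pairs of members were compared over the 21 libraries (two-sided permutation within doses, Benjamini-Hochberg over 45 pairs). Past an adjusted p of 0.05 were 9 pairs that varied together and 3 that varied in opposite directions by Pearson r, and 5 and 3 by Spearman rho. Many of these are matched by other genes: from 0.355% to 19.3% of tested features followed or opposed a member of such a pair at least as closely as its partner did. SRSF3 and SRSF7 varied together, with Pearson r 0.882 (permutation p 5.99994e-05, adjusted 0.0027) and Spearman rho 0.884 (permutation p 0.00016, adjusted 0.00517). Pearson r was 0.832 without the 2 libraries farthest from the median. SRSF4 and SRSF7 varied in opposite directions, with r -0.898 (permutation p 0.00075, adjusted 0.0151), and -0.831 without 2 libraries. For that pair Spearman rho was -0.855 (permutation p 0.00023, adjusted 0.00517). For comparison, 1.90% of the tested features followed SRSF7 at least as closely as SRSF3 did, and 1.81% opposed it at least as strongly as SRSF4 did.

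The same deviations moved with the mitochondrial share of a library for 3 of the 10 members within doses (two-sided permutation of Pearson r, adjusted over 10 relations). By Spearman rho SRSF6 passed too (-0.631, permutation p 0.014, adjusted 0.035). The share of all tested features that passes such a test was not counted. For SRSF1 r was -0.796 (permutation p 0.00284, adjusted 0.0198), and -0.725 without 2 libraries; Spearman rho was -0.788 (permutation p 0.00197, adjusted 0.012). For SRSF9 r was -0.680 (permutation p 0.00397, adjusted 0.0198), and -0.577 without 2 libraries; Spearman rho was -0.739 (permutation p 0.0024, adjusted 0.012). For SRSF11 r was 0.622 (permutation p 0.00975, adjusted 0.0325), and 0.588 without 2 libraries; Spearman rho was 0.621 (permutation p 0.0121, adjusted 0.035). Among all tested features, 1.28%, 4.44% and 6.94% moved with the mitochondrial share at least as closely in the same direction as SRSF1, SRSF9 and SRSF11. Pooled over doses, all 21 libraries were permuted without regard to dose, and 6 of the 10 members passed. The share of all tested features that passes was not counted here either. Pearson r was -0.782 for SRSF1, -0.660 for SRSF9, 0.602 for SRSF11, 0.623 for SRSF4, -0.605 for SRSF7 and -0.507 for SRSF6. Permutation p for r was adjusted, in this order, to 0.0004, 0.00525, 0.0083, 0.00723, 0.0083 and 0.0343. In the same order Spearman rho was -0.775, -0.719, 0.706, 0.738, -0.591 and -0.534, and permutation p for it was adjusted to 0.0004, 0.00107, 0.00137, 0.00107, 0.0107 and 0.0228. Leaving out the 2 farthest libraries gave r of -0.686, -0.600, 0.701, 0.80, -0.694 and -0.384. Within doses SRSF4, SRSF6 and SRSF7 did not pass by r (permutation p adjusted to 0.185, 0.0711 and 0.123). Nor did SRSF2, with r of 0.636 (permutation p adjusted to 0.229), and -0.00144 without the 2 farthest libraries. With the mitochondrial share as a covariate, the log2 fold change at 1000 µM was -0.61 for SRSF9 (adjusted p 0.00439) and 0.47 for SRSF11 (adjusted p 0.00157). Without the 4 libraries above 10% it was -0.66 (adjusted p 0.0276) and 0.45 (adjusted p 0.00924), and all 5 calls at 1000 µM remained in both fits.

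**Figure D3:**
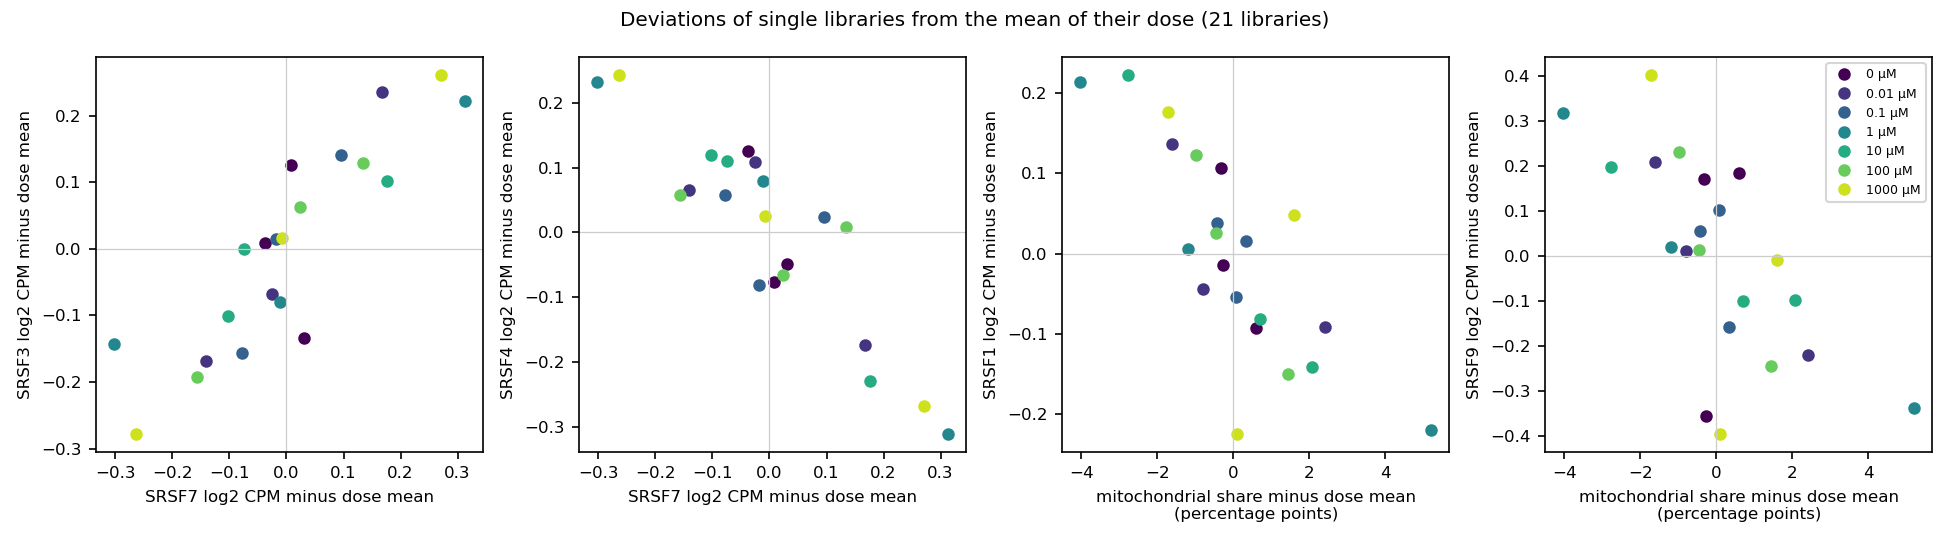
Deviations of single libraries from the mean of their dose, one point per library, coloured by dose. The left panels plot SRSF3 and SRSF4 against SRSF7 (log2 CPM), and the right panels plot SRSF1 and SRSF9 against the mitochondrial share (percentage points); SRSF3 rises with SRSF7 (r 0.882), SRSF4 falls with it (r -0.898), and SRSF1 and SRSF9 fall with the mitochondrial share (r -0.796 and -0.680).

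Other genes of the splicing machinery were compared at 1000 µM against 0 µM in 4 lists, all of whose genes were tested. Of 9 kinases of SR proteins 6 rose and 1 fell, beside 20.6% of all tested features in each direction. Their median log2 fold change was 0.38, beside -0.03 for all tested features. PRPF4B, a kinase of spliceosome assembly, rose from 107 ± 10.6 to 212 ± 30.7 CPM (log2 fold change 0.98 ± 0.13, adjusted p 2.05e-05 by edgeR). CLK1, which phosphorylates SR proteins in the nucleus, rose from 26.0 ± 1.35 to 41.4 ± 2.72 CPM (0.67 ± 0.10, adjusted p 6.63e-05), and CLK3 from 39.9 ± 3.22 to 56.1 ± 2.30 CPM. SRPK3, a muscle kinase, fell and was under 1 CPM in the means of both groups. At 1000 against 100 µM 2 of the 9 kinases were higher and 0 lower, beside 14.7% of tested features called. At 10 against 0 µM 2 were higher and 0 lower, beside 22.0% called.

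Of 25 other RS-domain and SR-related genes 12 rose and 1 fell, beside 20.6% of all tested features in each direction. Their median log2 fold change was 0.42. RSRP1 rose from 26.1 ± 3.54 to 62.3 ± 5.03 CPM (log2 fold change 1.25 ± 0.11, adjusted p 3.48e-07 by edgeR), SCAF11 from 77.6 ± 7.96 to 134 ± 15.5 CPM, and SRRM2, a large scaffold protein of nuclear speckles, from 399 ± 49.7 to 636 ± 156 CPM. The log2 fold change of SRRM2 was 1.01 at 10 µM (adjusted p 0.0103 by edgeR) and 0.67 at 1000 µM (adjusted p 0.0371). SRSF8, a close relative of SRSF2 that is outside the 10 members, fell from 33.5 ± 2.54 to 22.8 ± 1.89 CPM (-0.55 ± 0.09, adjusted p 0.000205). At 1000 against 100 µM 2 of the 25 genes were higher and 1 lower, beside 14.7% of tested features called. Already at 10 against 0 µM 10 were higher and 1 lower, beside 22.0% called.

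Of 37 hnRNPs and other regulators 14 rose and 8 fell, beside 20.6% of all tested features in each direction. Their median was 0.15. QKI rose from 70.2 ± 5.66 to 119 ± 17.0 CPM, and the muscleblind genes MBNL1 and MBNL2, which bind introns and exons of developmental splicing targets, rose by 0.74 ± 0.13 and 0.57 ± 0.14 on the log2 scale. HNRNPA0 (-0.73 ± 0.13) and HNRNPD (-0.52 ± 0.11) fell. At 10 µM HNRNPA0 was at -0.70 (adjusted p 0.00425 by edgeR) and HNRNPD at -0.18 (adjusted p 0.222). From 100 to 1000 µM the values were -0.11 (adjusted p 0.644) and -0.34 (adjusted p 0.0382). Of 35 core spliceosome genes 5 rose and 12 fell at 1000 against 0 µM, with a median of -0.24. In both directions together 17 of the 35 were called, beside 41.2% of all tested features. SF3B1, which recognises the branch point, rose from 383 ± 27.1 to 569 ± 69.6 CPM, and SNRNP200 and CDC5L rose by 0.48 ± 0.11 and 0.43 ± 0.09. SNRPG, SNRPD2 and SNRPB, which encode Sm proteins of the spliceosomal RNPs, fell by 1.01, 0.94 and 0.88 on the log2 scale. Already at 10 µM their log2 fold changes were -1.03, -0.87 and -0.94 (adjusted p 0.00707, 0.00359 and 0.00447 by edgeR). From 100 to 1000 µM they were -0.07, -0.13 and -0.16 (adjusted p 0.868, 0.584 and 0.622). SNRPG held 101 ± 33.9 CPM in the controls. Of the 7 Sm genes in that list, 5 fell at 1000 against 0 µM, beside 20.6% of tested features. This group was singled out after its values were seen. SNRPD1 (-0.30, adjusted p 0.354 by edgeR) and SNRPD3 (-0.07, adjusted p 0.738) did not pass. SNRPB fell from 409 ± 65.9 to 223 ± 44.9 CPM. At 1000 against 100 µM 4 hnRNPs and other regulators were higher and 1 lower, and 0 core spliceosome genes were higher and 2 lower. In that comparison 14.7% of tested features were called. At 10 against 0 µM 6 regulators were higher and 5 lower, and 4 core genes were higher and 5 lower, beside 22.0% called.

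**Figure D4:**
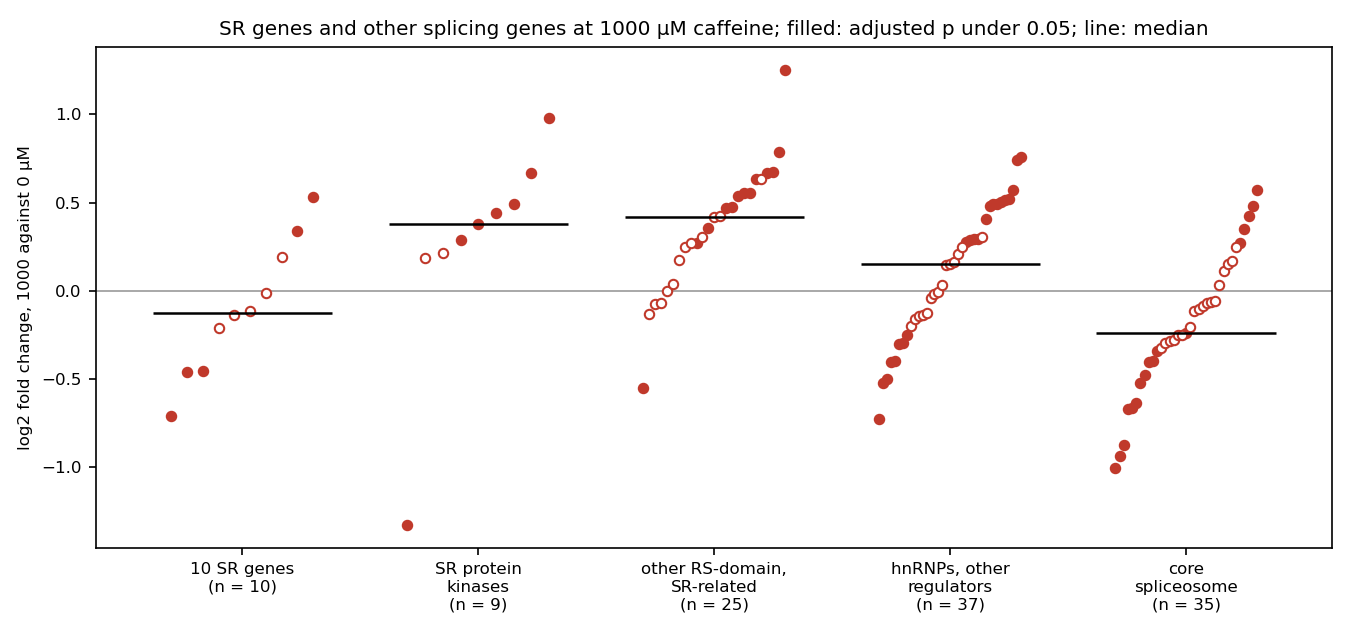
Log2 fold change at 1000 against 0 µM (vertical axis) of the 10 SR genes and of 4 lists of other splicing genes (horizontal axis), one point per gene; filled points have an adjusted p under 0.05 and the line is the list's median. The medians are -0.13 for the SR genes, 0.38 for their kinases, 0.42 for other RS-domain genes, 0.15 for hnRNPs and other regulators and -0.24 for the core spliceosome.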

How the data were processed

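The authors deposited one table of raw read counts per gene for HepG2 cells. HISAT2, DESeq2 and GRCh38 are named in the submitters' processing notes; the counting program, annotation and use of strand are not given in the sources used here. Of its 42 columns of per-sample values, 21 matched these samples; the other 21 were not used. Each of the 10 members had 2035 to 17746 counts per library.

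One edgeR 4.0.16 quasi-likelihood fit (R 4.3.3, TMM, filterByExpr with a minimum count of 10) over 21 samples in 7 groups tested 17468 features, 1617 of them unannotated. SE was derived from the log2 fold change and the F statistic, and 95% intervals use the 14 residual degrees of freedom. Adjusted p-values are Benjamini-Hochberg values over all tested features, with a threshold of 0.05. Correlations used 100000 permutations (SciPy 1.17.1). Alternatives included DESeq2 1.42.0, other scaling and filters, and leaving out libraries; scripts were tested on simulated data. P-values of the fits set a difference between doses, or a slope, against the spread between these libraries. Permutation p-values compare a correlation with those of shuffled libraries.

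The members and lists were chosen with earlier results of these data known. In each splicing list, up to 3 higher and 3 lower genes were named by largest fold change among those called at 1000 µM without overlap with the controls; for SRSF2 and SRSF3, the 3 genes with the highest Pearson r (mean of at least 10 CPM). All 10 members are named; some list genes that meet the rule are left out of the text. Symbols of overlapping genes, lengths and positions are from GENCODE 29, which may differ from the authors' annotation.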

Additional observations from a re-analysis of the deposited data

How the results depend on the processing

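The count of SR genes called was 5 at 1000 against 0 µM ( 3 to 5 leaving out 1 library, lowest without 1000 µM replicate 1). DESeq2 gave 1 at 0.01 µM and 1 at 1 µM, where omitting the filter on low counts also gave 1. The shares of all tested features called by the alternatives are not given here. At 100 µM an adjusted p under 0.01 left 0. Against 100 µM, DESeq2 and the mitochondrial covariate each called 2 (SRSF2 and SRSF6). For the mean of 0.01 to 10 µM against 0 µM the count was 1 with no filter and 0 at an adjusted p under 0.01. For 1000 µM against that mean it was 1 without the libraries above 10% mitochondrial share, an alternative added after seeing the data. Among the 7 groups it was 1 without the 0 µM samples, 0 without the 1000 µM samples and 0 at an adjusted p under 0.01. The slope count was 0 without the 0 µM samples. Leaving out 1 library gave 0 to 1 members for 0.01 µM, 0 for 0.1 µM and 0 to 1 for 1 µM. It gave 1 to 3 for 10 µM, and 0 to 2 for 100 µM. It gave 0 to 1 for 1000 against 100 µM, 0 to 2 for the lower doses against 0 µM, 1 to 3 for 1000 µM against them, 1 to 4 among groups and 3 to 4 for the slope. Where a library was left out, its group of 2 shared the spread of the other groups.

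The labels number the replicates but do not say that a number marks a shared batch. Over 63 pairs of libraries with the same number, deviations from group means correlated with a median r of 0.0199, 11 pairs were over 0.1, and 5 of 21 libraries correlated best with their own number. With the replicate number as a block, the count at 100 µM was 1 (SRSF10); the block changed no other count, with 5 at 1000 µM and 2 at 10 µM.

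Signs changed only for values not past the threshold. At 1000 against 0 µM, SRSF5 turned to 0.0108 with DESeq2, 0.0108 with RLE size factors, 0.0204 with no filter and 0.00492 in the fit on 6 samples, and ran from -0.0738 to 0.0517 without 1 library; SRSF1 ran from -0.182 to 0.0185 without 1 library. At 1000 against 100 µM and without 1 library, SRSF4 ran from -0.147 to 0.0989, SRSF9 from -0.177 to 0.228 and SRSF10 from -0.117 to 0.0629. The slope of SRSF1 was 0.000319 with DESeq2, 0.000318 with RLE, 0.00475 with no filter, 0.00862 with the mitochondrial covariate, 0.0142 without 0 µM, 0.00429 without 1000 µM, and -0.00621 to 0.0103 without 1 library. Without the 1000 µM samples the slope was 0.00747 for SRSF2 and 0.00882 for SRSF6, and SRSF6 ran from -0.0133 to 0.00387 without 1 library. The cause was not tested. Of 620 alternative values for single members, 565 kept their direction and side of the threshold. Member counts of 2035 or more leave replicate spread, not counting error, as the limit.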
